A study of Mus musculus with 18 samples.

Results

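Lysozymes, the secretory leukocyte protease inhibitor and the S100 proteins are small proteins that macrophages make, most of them antimicrobial or calcium-binding. Their mRNA was followed in bone marrow-derived macrophages (BMDMs) with and without Prep, the gene of prolyl endopeptidase. The 10 genes Lyz1, Lyz2, Slpi, S100a1, S100a4, S100a6, S100a8, S100a9, S100a10 and S100a11 were taken by symbol from the 16314 gene symbols of the count table, and they were chosen by the counts of Lyz2, the most abundant gene in some libraries of unstimulated Prep-/- BMDMs. All 10 were among the 12021 genes that passed the filter on low counts, and the lowest count of any of them in any library was 20, for Slpi. Bone marrow of Prep-/- mice and of Prep+/- littermates on the C57BL6/J background was cultured for 7 days with 50 ng/ml M-CSF, a growth factor that turns marrow precursors into macrophages. The cells were then left unstimulated (M0), stimulated for 24 h with 50 ng/ml LPS (M1), or given IL-4 and IL-13 for 24 h, each at 20 ng/ml (M2). Each of the 6 groups of genotype and state held 3 biological replicates, giving 18 bulk RNA-seq libraries. The control mice were heterozygous and no wild type group was analysed here, the Prep-/- cells lacked Prep during the whole culture, and the sources used here do not say whether the replicates were separate mice. The p-values therefore measure the spread between these libraries.

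Lysozymes cut the peptidoglycan of bacterial cell walls. Lyz2 encodes the M-type lysozyme of macrophages and neutrophils and is a classical marker gene of myeloid cells, whereas Lyz1 encodes the P-type lysozyme best known from Paneth cells of the intestine. Slpi encodes a secreted inhibitor of neutrophil elastase and cathepsin G that also dampens responses to LPS. Most S100 proteins bind calcium through EF-hand motifs, and they mostly act as dimers. S100A8 and S100A9 form calprotectin, which withholds metal ions from microbes and signals through TLR4 when released. S100A4, S100A6, S100A10 and S100A11 act mainly inside the cell on myosin, annexins and other partners, and S100A1 is best known from muscle.

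Both lysozyme genes lie next to each other on the minus strand of chromosome 10 in GRCm39, Lyz2 at chr10:117111557-117118346 and Lyz1 at chr10:117123698-117128775, 5.4 kb apart (GENCODE annotation). Their coding sequences are 444 bases long each and differ at 22 positions, an identity of 95%, with 118 identical bases in the longest run. The differences are unevenly placed, from 2 to 15 in a window of 150 bases. The first 120 coding bases are shown because they hold 11 of the 22 differences, the bases by which reads of these neighbours can be told apart. They come from chr10:117128624-117128743 for Lyz1 and chr10:117118028-117118147 for Lyz2, both on the minus strand, with the differing bases in capitals.
Lyz1: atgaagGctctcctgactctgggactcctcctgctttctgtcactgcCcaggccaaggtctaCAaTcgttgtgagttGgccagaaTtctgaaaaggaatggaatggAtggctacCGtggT
Lyz2: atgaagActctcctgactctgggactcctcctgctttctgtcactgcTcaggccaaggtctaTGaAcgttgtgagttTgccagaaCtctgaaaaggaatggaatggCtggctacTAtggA
How reads that fit both genes were counted is not stated in the sources used here. Lyz1 took between 0.36% and 0.818% of the counts of both lysozymes in the 18 libraries, so that Lyz1 transcripts and Lyz2 reads counted to Lyz1 cannot be told apart at this level.

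The 200 bases upstream of the transcript that GENCODE marks as canonical are shown for the lysozymes because they share 4 runs of at least 10 bases. The runs hold 50 bases in all, the longest of them 14, and are in capitals. The sequences are from chr10:117128776-117128975 for Lyz1 and chr10:117118227-117118426 for Lyz2 in GRCm39, read on the minus strand.
Lyz1 promoter: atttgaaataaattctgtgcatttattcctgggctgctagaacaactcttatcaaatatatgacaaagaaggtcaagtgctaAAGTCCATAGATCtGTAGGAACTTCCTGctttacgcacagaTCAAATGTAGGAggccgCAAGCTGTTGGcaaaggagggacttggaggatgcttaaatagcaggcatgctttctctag
Lyz2 promoter: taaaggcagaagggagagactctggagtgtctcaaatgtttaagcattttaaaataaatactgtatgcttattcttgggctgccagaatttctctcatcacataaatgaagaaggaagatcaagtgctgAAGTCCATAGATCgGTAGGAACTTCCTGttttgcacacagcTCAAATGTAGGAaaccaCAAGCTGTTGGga
In both genes the shared runs came in the same order. The annotated Lyz2 gene begins upstream of its canonical transcript, so part of the Lyz2 stretch lies within the bounds of the gene given above.

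All 7 S100 genes are on chromosome 3, where S100a1 (chr3:90418340-90421848), S100a4 (chr3:90511074-90513354), S100a6 (chr3:90520140-90535843), S100a8 (chr3:90567118-90578128) and S100a9 (chr3:90599931-90603071) lie in a row. S100a11 (chr3:93414382-93435293) and S100a10 (chr3:93462213-93474510) follow 2811.3 kb farther on. S100a1 and S100a9 are on the minus strand and the others on the plus strand. S100a1 overlaps S100a13 on the opposite strand, S100a4 overlaps Gm42674 on its own strand, and Slpi on chromosome 2 (chr2:164195990-164231015, minus strand) overlaps Matn4 and Mir7678 on its own strand. Whether counting used the strand is not stated in the sources used here, so counts of these overlapping genes carry that uncertainty.

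The 200 bases upstream of the canonical transcripts of S100a8 and S100a9 are shown because their products form calprotectin together while the letters searched for in these promoters differed. They are from chr3:90576085-90576284 on the plus strand for S100a8 and chr3:90603072-90603271 on the minus strand for S100a9 in GRCm39, with the matches in capitals. The annotated S100a8 gene begins farther upstream than its canonical transcript, so the S100a8 stretch lies within the bounds of the gene, as do those searched for S100a11 and Slpi.
S100a8 promoter: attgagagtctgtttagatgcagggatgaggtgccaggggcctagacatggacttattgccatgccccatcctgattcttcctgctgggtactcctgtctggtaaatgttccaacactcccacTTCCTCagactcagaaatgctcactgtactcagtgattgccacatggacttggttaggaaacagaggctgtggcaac
S100a9 promoter: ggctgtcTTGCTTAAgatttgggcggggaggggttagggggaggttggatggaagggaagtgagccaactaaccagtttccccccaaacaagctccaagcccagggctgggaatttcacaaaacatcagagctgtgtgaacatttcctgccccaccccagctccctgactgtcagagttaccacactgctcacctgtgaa
The letters searched for on both strands were GAGGAA for PU.1, the lineage factor of myeloid cells, TTGCNNAA for C/EBP, GGG and TTCC with 3 bases between them for NF-kB, and TTC and GAA with 4 bases between them for STAT6. GAGGAA was found in S100a8, starting 77 bases upstream of the canonical transcript, in S100a10, 123 bases upstream, and in S100a11, 27 bases upstream. TTGCNNAA was found in S100a9, 193 bases upstream. The other searches in the 10 promoters found no match, and no matches overlapped. Of 21770 promoters of protein-coding genes of the same length, 18.8% held GAGGAA, 7.23% TTGCNNAA, 4.01% the NF-kB letters and 4.57% the STAT6 letters. A match is only a match of letters, and the lack of a match to these strings does not show the lack of a binding site.

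The libraries held between 19068237 and 22598279 counts. Prep, the targeted gene, lay between 26.0 and 42.5 CPM (counts scaled by library size and TMM factor) in the 9 Prep+/- libraries and between 1.48 and 3.22 CPM in the 9 Prep-/- libraries, and its log2 fold change in Prep-/- was −4.29, −3.74 and −3.77 in M0, M1 and M2. All 11 macrophage marker genes were detected in each group, with a sum of 6948 to 16290 CPM. In M0 the sum was 6948 to 7446 CPM in Prep+/- and 10800 to 16290 CPM in Prep-/- libraries, whereas the genotypes overlapped in M1 and in M2. The 13 granulocyte markers summed to 39.7 to 196 CPM. Elane, Mpo, Prtn3, Ctsg, Ly6g, Retnlg and Cxcr2 were below 1 CPM in every group mean, whereas Mmp8 reached 140, Ngp 28.2, Ltf 18.3, Padi4 7.14, Camp 6.27 and Cebpe 4.29 CPM in their highest group. The 5 stromal markers summed to 0.738 CPM in the third Prep-/- M0 library, against 13.1 and 17.7 CPM in the others of that group. In M2 the third Prep+/- library held 14.4 CPM of them, against 0.0839 and 0.426 CPM in the others of its group. Whether these stromal differences bear on the genes studied was not tested. In bulk RNA, fewer cells of a type and less RNA per cell cannot be told apart. In the third Prep-/- M0 library, S100a4, S100a6, S100a10 and S100a1 were higher and Lyz2 was lower than in the other two of that group, so results that rest on this group are also given without it.

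Levels of different genes were compared as CPM per kb of the canonical transcript. On this scale Lyz2 was the highest of the 10 genes in every group, from 2518 in Prep+/- M2 to 11760 in Prep+/- M1. S100a4 followed with group means between 736 and 3778, and S100a6 with 474 to 1240. S100a1, S100a10 and S100a11 lay between 66.2 and 227 CPM per kb. Their canonical transcripts have 827, 3419 and 2328 bases, so these levels depend on the transcript taken. S100a8 and S100a9 were low, at 11.5 to 105, and Slpi ranged from 1.51 in Prep+/- M2 to 358 in Prep+/- M1. The 10 genes together took 1.11% to 4.33% of the counts of a library.

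**Figure D1:**
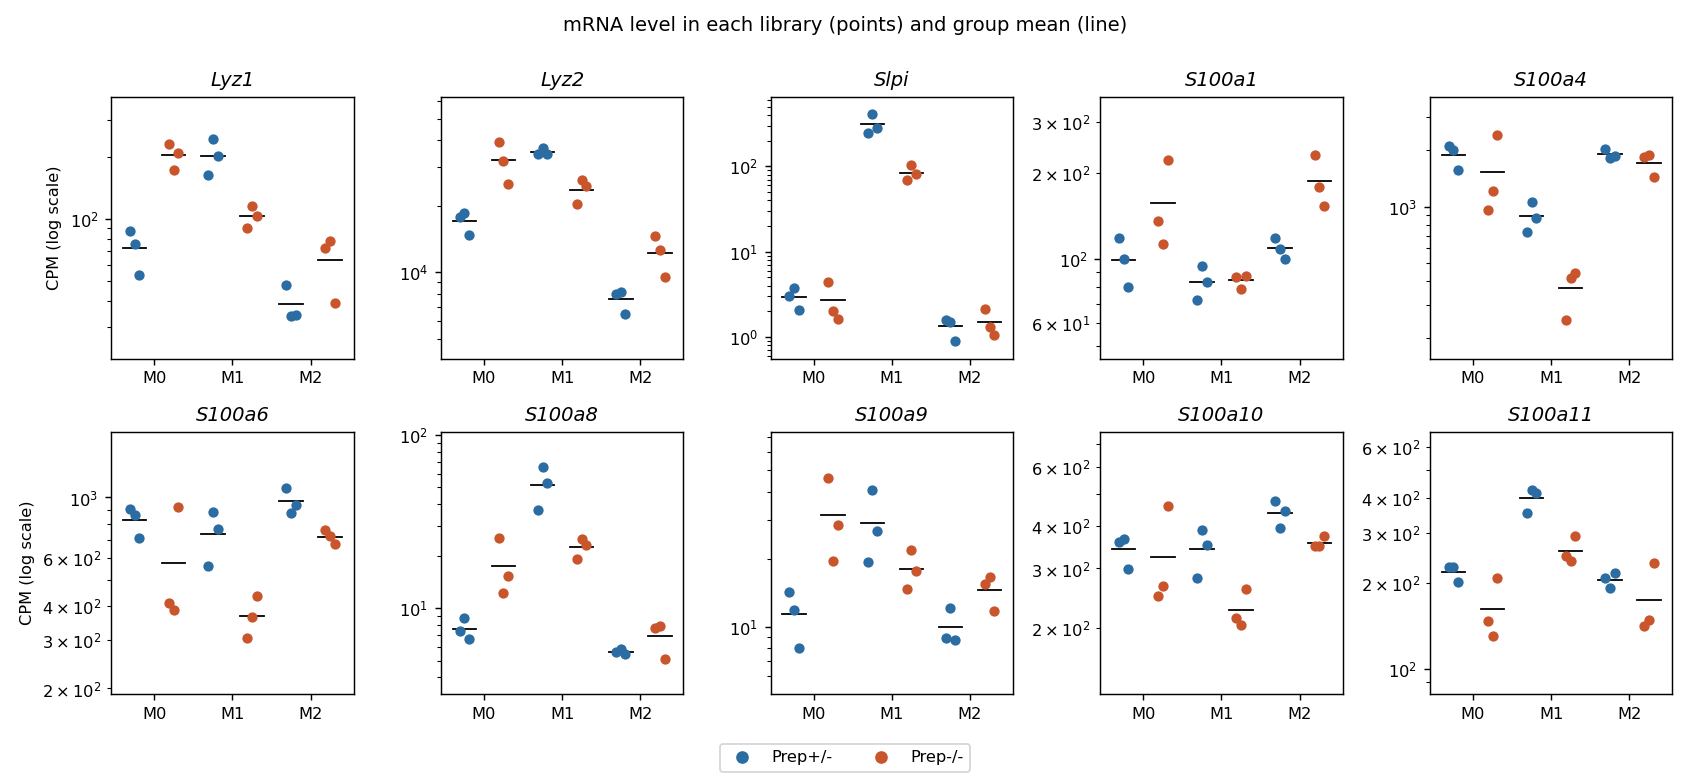
Each panel plots 1 gene in CPM on a log axis for Prep+/- (blue) and Prep-/- (orange) libraries in M0, M1 and M2, with points for the 3 libraries and a line at the group mean. Slpi spans 236.8-fold between its highest and lowest group mean, while S100a10 spans 1.94-fold.

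The question asked of the 10 genes was whether loss of Prep changed their level in each state, and how LPS or IL-4 and IL-13 moved them in each genotype. DEGs had an adjusted p under 0.05 in edgeR's quasi-likelihood test, over all genes tested, and a fold change over 1.5. In M1, 7 of the 10 genes passed, and each of the 7 was lower in Prep-/-, where 22.5% of all genes tested passed and 10.2% passed as lower. In 8 of the 10 genes each Prep-/- M1 library was below each Prep+/- M1 library, against 27.1% of all genes. The median of the 10 log2 fold changes was −0.83, and that of all genes tested was 0.04. Without the first Prep-/- M1 library 4 of the 10 passed. In M2, 3 of the 10 passed, all higher in Prep-/-, against 16.2% of all genes that passed and 6.37% that passed as higher. This count was 0 without the third Prep+/- M2 library and 0 without the first Prep-/- M2 library. In M0 the knockout comparison had served to choose the genes, so its values are given as a description with no test. There 4 of the 10 genes were higher in each Prep-/- library than in each Prep+/- library and 0 were lower, beside 25.6% and 27.1% of all genes, and 32.6% of all genes passed the test.

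**Figure D2:**
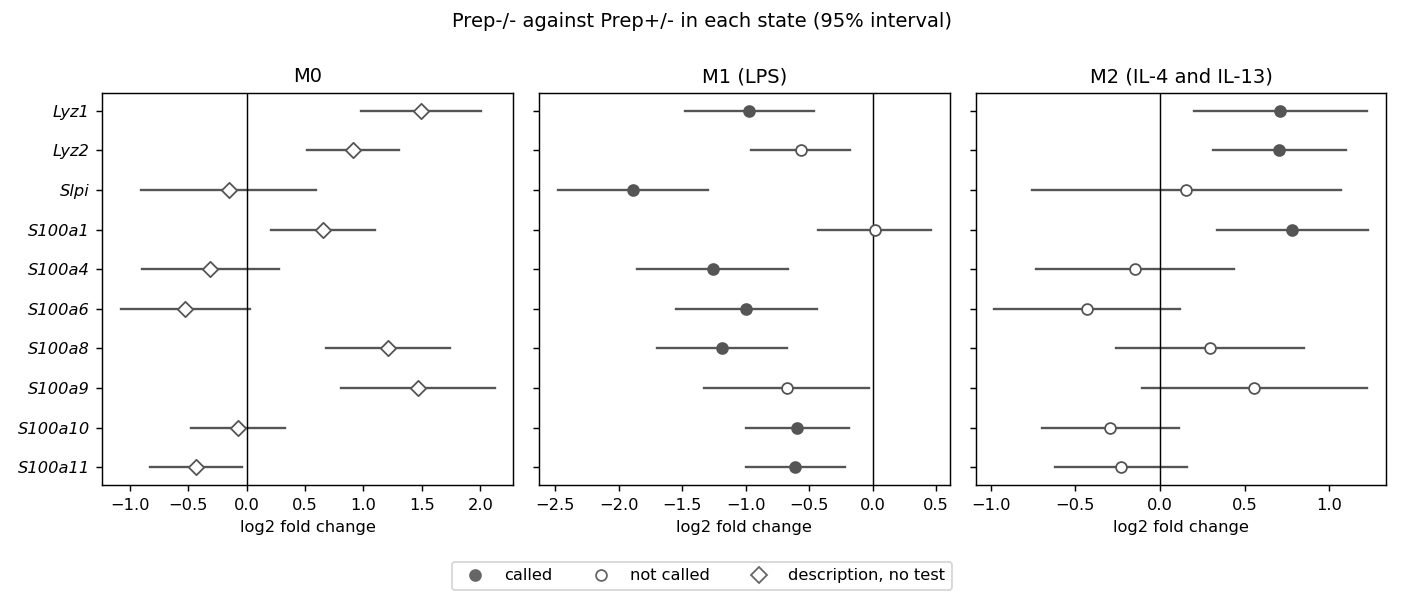
The log2 fold change of Prep-/- against Prep+/- BMDMs is plotted for each gene in M0, M1 and M2, with a bar for the 95% interval. Filled circles passed the test, open circles did not, and open diamonds (M0) are descriptions. In M1, 9 of the 10 values lie below 0, and the 3 filled circles in M2 are Lyz1, Lyz2 and S100a1.

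LPS raised 6 of the 10 genes and lowered 1 in Prep+/- BMDMs, where 37.7% of all genes passed, 16.7% as higher and 20.9% as lower. In Prep-/- BMDMs 7 of 9 tested genes passed, 2 higher and 5 lower, against 42% of all genes, 20.9% as higher and 21% as lower, and 6 passed without the third M0 library. IL-4 and IL-13 lowered 3 of the 10 genes in Prep+/- BMDMs, against 12.9% of all genes that passed and 6.77% that passed as lower, and 1 of the 10 without the first M0 library or the second or the third M2 library. They lowered 3 of 9 in Prep-/- BMDMs, against 30.2% and 15.5%, and 7 passed without the third Prep-/- M0 library. Lyz2 was left out of the tests against Prep-/- M0, since its level there was used to choose the genes. Lyz1 was kept in them, although its counts may hold Lyz2 reads, so its tests there may not be independent of that choice. Both stimulations were compared with the same M0 libraries of their genotype.

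**Figure D3:**
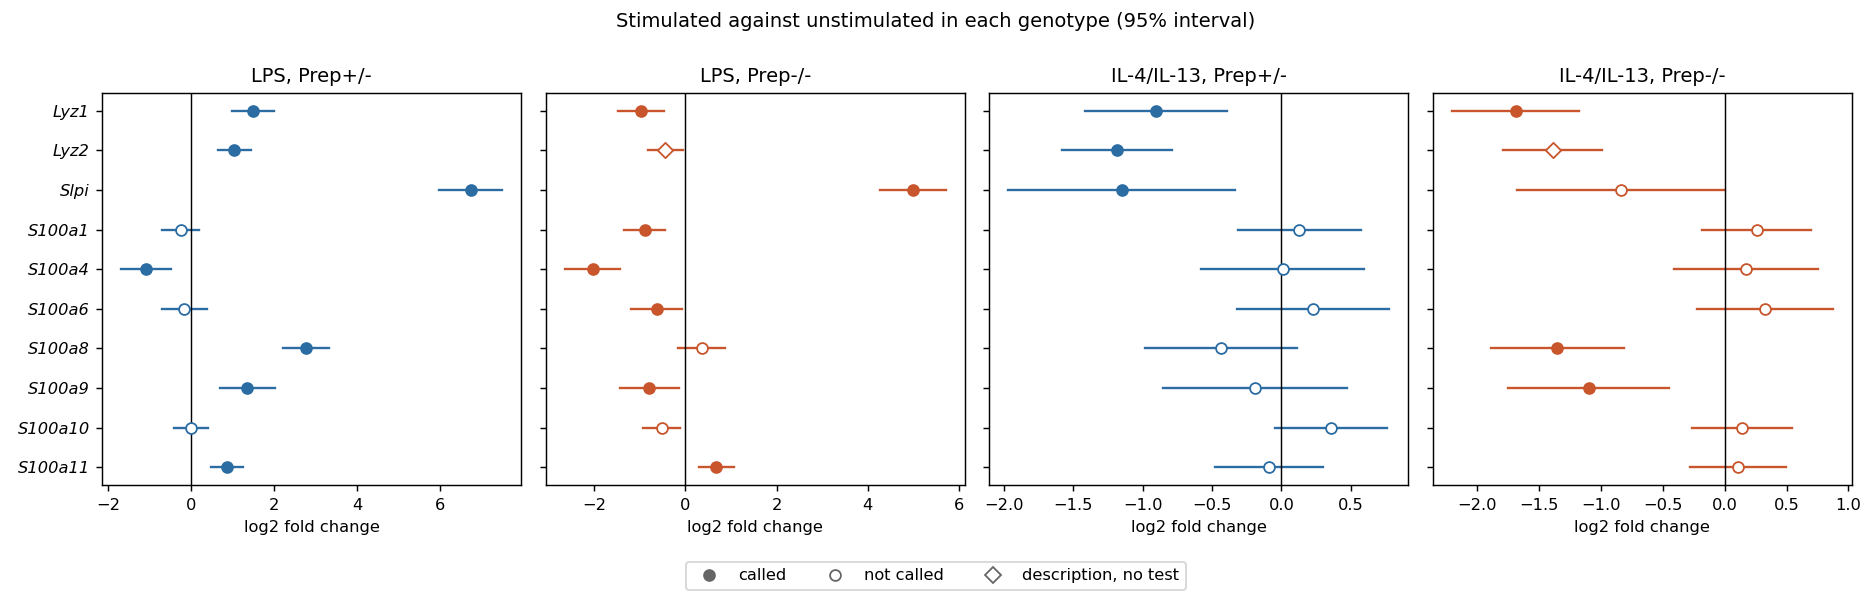
The log2 fold change of LPS-stimulated and of IL-4 and IL-13-stimulated BMDMs against M0 is plotted per gene for Prep+/- (blue) and Prep-/- (orange), with 95% intervals. Filled circles passed the test, open circles did not and diamonds were not tested. Slpi lies farthest to the right under LPS in both genotypes, at 6.73 and 4.99.

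Lyz1 was lower in Prep-/- M1 and higher in Prep-/- M2, and Lyz2 had differences of the same signs, of which the one in M2 passed. Lyz2 counted 17839, 18710 and 14850 CPM in the Prep+/- M0 libraries and 39295, 32197 and 25299 CPM in the Prep-/- M0 libraries. Each Prep-/- value was above each Prep+/- value, and the mean was higher by 0.91 on the log2 scale (SE 0.19, 1.05 without the third Prep-/- M0 library). By counts, without regard to length, Lyz2 ranked first in 2 of the 3 Prep-/- M0 libraries, with 4.10% and 3.63% of all counts. In the third it took 2.53% and ranked second behind Ftl1, the gene of the ferritin light chain. Ftl1 was also first in the Prep+/- M0 libraries, where Lyz2 ranked second.

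After LPS, Lyz2 was at 34617, 36628 and 34403 CPM in Prep+/- and at 20392, 26197 and 24756 CPM in Prep-/- BMDMs. The groups did not overlap, and the level was lower in Prep-/- by 1.48-fold (log2 −0.57, SE 0.18, adjusted p = 0.0252), just under the fold change needed for a DEG. It passed without the first Prep+/- M1 library (−0.59, adjusted p = 0.0412) or the second or the third Prep-/- M1 library (−0.65 and −0.60, adjusted p of 0.0312 and 0.0462). It also passed with DESeq2 (−0.60, adjusted p = 0.00405), with DESeq2-type size factors (−0.60, adjusted p = 0.0211) and with the replicate block (−0.59, adjusted p = 0.00443). The replicate numbers were not taken to pair the libraries of this comparison. Lyz2 thus passed in 6 of 11 alternatives, whose values ran from −0.65 to −0.48 with adjusted p from 0.00405 to 0.112. After IL-4 and IL-13, Lyz2 was at 8000, 8122 and 6501 CPM in Prep+/- and at 14679, 12689 and 9545 CPM in Prep-/-. Here each Prep-/- library was higher, by 1.63-fold on average (log2 0.71, SE 0.18, adjusted p = 0.0105). The call was lost without the third Prep+/- M2 library (adjusted p = 0.0588) or the first Prep-/- M2 library (adjusted p = 0.067). Between M2 and M1 the knockout effect on Lyz2 differed by 1.27 on the log2 scale (SE 0.26, adjusted p = 0.00497).

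Lyz1 was counted at a much lower level. It was at 87.7, 75.2 and 53.7 CPM in Prep+/- M0 and at 230, 172 and 209 CPM in Prep-/- M0, with no overlap and a difference of 1.5 on the log2 scale (SE 0.24, 1.46 without the third Prep-/- library). In M1 it was at 163, 244 and 201 CPM in Prep+/- and at 90.1, 116 and 104 CPM in Prep-/-. Every Prep-/- M1 library was below the Prep+/- ones, and Lyz1 fell by 0.97 on the log2 scale (SE 0.24, adjusted p = 0.00558). In M2 the 3 Prep+/- libraries held 47.6, 33.7 and 34.3 CPM and the 3 Prep-/- libraries 72.0, 78.4 and 39.0 CPM. The lowest Prep-/- library lay within the Prep+/- range, and the rise of 0.71 (SE 0.24, adjusted p = 0.0404) was lost when any of 4 libraries was left out. The adjusted p was then 0.149 and 0.133 without the second or the third Prep+/- library and 0.151 and 0.17 without the first or the second Prep-/- library. In a fit of only the libraries compared it was 0.104. The knockout effect on Lyz1 differed between M2 and M1 by 1.68 (SE 0.34, adjusted p = 0.00446).

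Stimulation moved the lysozymes in Prep+/- BMDMs upward with LPS and downward with IL-4 and IL-13. LPS raised Lyz2 2.06-fold (log2 1.04, SE 0.19, adjusted p = 0.000176) and Lyz1 2.81-fold (log2 1.49, SE 0.24, adjusted p = 7.04e-05). IL-4 and IL-13 lowered Lyz2 2.27-fold (log2 −1.18, SE 0.19, adjusted p = 0.000227) and Lyz1 1.87-fold (log2 −0.90, SE 0.24, adjusted p = 0.0141). The Lyz1 call under IL-4 and IL-13 was lost without the first Prep+/- M0 library (adjusted p = 0.0671) or the second or the third Prep+/- M2 library (adjusted p of 0.0655 and 0.061). In Prep-/- BMDMs, Lyz1 was lower after both, with a log2 fold change of −0.98 with LPS (SE 0.24, adjusted p = 0.00227) and −1.69 with IL-4 and IL-13 (SE 0.24, adjusted p = 3.72e-05). Without the third Prep-/- M0 library these were −0.99 (adjusted p = 0.0055) and −1.67 (adjusted p = 0.000142). Lyz2 in Prep-/- BMDMs differed from M0 by −0.44 with LPS, where the libraries overlapped, and by −1.39 with IL-4 and IL-13, where they did not, and by −0.62 and −1.54 without that library. The tests of Lyz1 against Prep-/- M0 may depend on the values used to choose the genes, since Lyz1 counts may hold Lyz2 reads. Over all groups Lyz2 fell in the order Prep+/- M1, Prep-/- M0, Prep-/- M1, Prep+/- M0, Prep-/- M2 and Prep+/- M2. The first and the second of these groups overlapped, as did the second and the third.

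**Figure D4:**
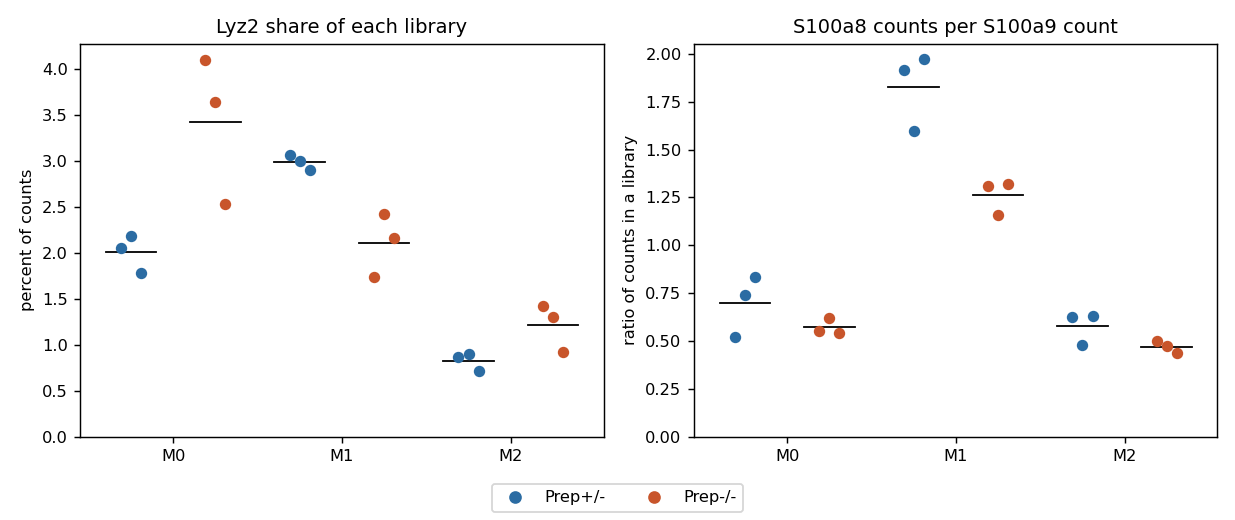
The left panel plots the Lyz2 share of all counts in percent for each library, and the right panel the counts of S100a8 per count of S100a9, with Prep+/- in blue, Prep-/- in orange and a line at each group mean. The Lyz2 share runs from 0.713% to 4.10%, and the ratio exceeds 1 in the 6 M1 libraries alone.

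Peptidoglycan-sensing genes were examined beside the lysozymes, which release fragments of that polymer. In Prep+/- BMDMs LPS raised 6 of the 7 genes, among them Pglyrp1 (log2 2.06, SE 0.52, adjusted p = 0.00329), Nod2 (1.95, SE 0.17, adjusted p = 1.07e-07) and Nod1 (1.90, SE 0.26, adjusted p = 1.35e-05), and the median of the list was 1.77. Of all genes, 16.7% passed as higher in that comparison. Pglyrp1, which encodes a peptidoglycan recognition protein, stayed below 1 CPM in both Prep+/- groups of that comparison. In Prep-/- M1 BMDMs, Tlr2 (log2 −1.07, SE 0.22, adjusted p = 0.00166), Nlrp3 (−1.04, SE 0.23, adjusted p = 0.00309) and Pglyrp1 (−1.37, SE 0.50, adjusted p = 0.043) were lower, whereas the muropeptide sensor Nod1 was higher (0.68, SE 0.25, adjusted p = 0.0431). Thus 4 of the 7 passed in M1, where 22.5% of all genes did, and the median of the 7 was −0.14. In M2, 0 of the 7 passed edgeR's test and 0 passed with DESeq2, while 1 had an unadjusted p under 0.05. Of all genes, 16.2% passed edgeR's test there.

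Slpi had the largest response to LPS of the 10 genes. It was at 3.05, 3.75 and 2.08 CPM in Prep+/- M0 and at 249, 411 and 281 CPM in Prep+/- M1, a rise of 105.8-fold (log2 6.73, SE 0.36, adjusted p = 5.73e-10). In Prep-/- BMDMs the level went from 4.41, 2.01 and 1.61 CPM in M0 to 70.0, 104 and 80.6 CPM in M1, a rise of 31.8-fold (log2 4.99, SE 0.34, adjusted p = 7.04e-09), or of 4.71 on the log2 scale without the third Prep-/- M0 library (adjusted p = 6.01e-08). The M0 libraries of the genotypes overlapped, with a difference of −0.15 that was 0.087 without that library, while each Prep-/- M1 library was below each Prep+/- M1 library. Slpi was 3.71-fold lower in Prep-/- M1 (log2 −1.89, SE 0.28, adjusted p = 0.000212), and this call was kept in each of the 11 alternatives, with adjusted p up to 0.00207.

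In M2, Slpi was at 1.58, 1.51 and 0.892 CPM in Prep+/- and at 2.11, 1.3 and 1.05 CPM in Prep-/- BMDMs, close to the bottom of its range. The genotypes overlapped and differed by 0.16 (95% interval −0.76 to 1.07, adjusted p = 0.829). The knockout effect in M2 exceeded that in M1 by 2.05 (SE 0.51, adjusted p = 0.0154), and without the first Prep-/- M2 library the adjusted p was 0.067. The fall of Slpi with IL-4 and IL-13 in Prep+/- BMDMs (log2 −1.15, SE 0.39, adjusted p = 0.0478) was lost without the first or the second M0 library (adjusted p of 0.092 and 0.18) and without any of the 3 M2 libraries (adjusted p of 0.0709, 0.0856 and 0.163).

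Related inhibitors were taken as the WAP domain genes, the family Slpi belongs to, and serpins that inhibit elastase-like proteases. Of 9 such genes, 6 were in the table and 5 were tested. LPS raised all 3 tested WAP genes in Prep+/- BMDMs, Wfdc21 by 6.63 (SE 0.51, adjusted p = 2.11e-08), Wfdc18 by 3.87 (SE 0.50, adjusted p = 6.72e-06) and Wfdc17 by 3.82 (SE 0.23, adjusted p = 1.87e-09), and lowered both serpins. Of all genes, 16.7% passed as higher and 20.9% as lower in that comparison. The Prep+/- M0 libraries held only 0 to 0.593 CPM of Wfdc21 and 0.197 to 0.593 CPM of Wfdc18, so the sizes of these 2 rises are uncertain. In Prep-/- M1, 0 of the 5 passed edgeR's test of the knockout effect, 2 had an unadjusted p under 0.05 and 1 passed with DESeq2. Of all genes, 22.5% passed edgeR's test of the knockout effect in M1 and 16.2% in M2. Wfdc21, the nearest to passing among the WAP genes, was at −0.82 (SE 0.34, adjusted p = 0.0716), with 18.7 to 28.8 CPM in Prep+/- and 10.7 to 14.2 CPM in Prep-/- M1 libraries. In M2, Wfdc17 was higher in Prep-/- by 0.99 (SE 0.21, adjusted p = 0.00256) and Serpinb1a was lower (log2 −1.23, SE 0.28, adjusted p = 0.00394).

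S100a8 was raised by LPS in Prep+/- BMDMs and was lower in Prep-/- than in Prep+/- BMDMs in M1. It was at 7.38, 8.76 and 6.69 CPM in Prep+/- M0 and at 25.5, 12.2 and 15.3 CPM in Prep-/- M0, with no overlap and a difference of 1.21 on the log2 scale (SE 0.25, between 0.85 and 1.42 when single libraries were left out, 1.29 without the third Prep-/- library). After LPS the values were 37.2, 65.4 and 52.8 CPM in Prep+/- and 19.3, 25.3 and 23.4 CPM in Prep-/-. Each Prep-/- M1 library was below each Prep+/- M1 library, and S100a8 was 2.28-fold lower (log2 −1.19, SE 0.24, adjusted p = 0.00167). In M2 the libraries held 5.58, 5.83 and 5.48 CPM in Prep+/- and 7.75, 7.90 and 5.13 CPM in Prep-/-, with overlap and a difference of 0.30 (95% interval −0.26 to 0.85, adjusted p = 0.447). The knockout effect differed between M2 and M1 by 1.49 (SE 0.36, adjusted p = 0.0119).

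S100a9, the partner of S100a8, was at 14.2, 11.9 and 8.02 CPM in Prep+/- M0 and at 46.2, 19.7 and 28.3 CPM in Prep-/- M0. The groups did not overlap, and the difference was 1.47 (SE 0.31, 1.52 without the third Prep-/- library). In M1 it was at 19.4, 40.9 and 26.7 CPM in Prep+/- and at 14.8, 21.9 and 17.7 CPM in Prep-/- BMDMs. These ranges overlapped, and the difference of −0.68 (95% interval −1.33 to −0.03, adjusted p = 0.0922) did not pass. It did pass without the first Prep+/- M1 library (−0.92, adjusted p = 0.0343), with only the libraries compared (−0.70, adjusted p = 0.04) and with the replicate block (−0.66, adjusted p = 0.00239). The replicate numbers were not taken to pair these libraries. S100a9 thus passed in 3 of 11 alternatives, whose values ran from −0.92 to −0.35 with adjusted p from 0.00239 to 0.429. In M2 the values of 8.91, 12.2 and 8.74 CPM in Prep+/- and 15.5, 16.7 and 11.7 CPM in Prep-/- overlapped as well (log2 0.56, SE 0.31, adjusted p = 0.211).

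LPS raised S100a8 6.79-fold (log2 2.76, SE 0.26, adjusted p = 1.77e-07) and S100a9 2.56-fold (log2 1.35, SE 0.31, adjusted p = 0.00156) in Prep+/- BMDMs. In Prep-/- BMDMs the change of S100a8 with LPS was 0.36 (95% interval −0.15 to 0.87, adjusted p = 0.217), and S100a9 was lower (log2 −0.79, SE 0.30, adjusted p = 0.0352). Without the first Prep-/- M0 library S100a8 rose by 0.72 (adjusted p = 0.0133) and the call of S100a9 was lost (adjusted p = 0.26), as it was without the first or the third Prep-/- M1 library (adjusted p of 0.103 and 0.0705). Without the third Prep-/- M0 library the values were 0.24 for S100a8 (adjusted p = 0.469) and −0.89 for S100a9 (adjusted p = 0.0367). IL-4 and IL-13 lowered S100a8 (log2 −1.35, SE 0.26, adjusted p = 0.000439) and S100a9 (log2 −1.10, SE 0.31, adjusted p = 0.00821, and 0.0651 without the first Prep-/- M0 library) in Prep-/- BMDMs. Without the third Prep-/- M0 library these were −1.45 (adjusted p = 0.000615) and −1.17 (adjusted p = 0.0112). In Prep+/- BMDMs the same stimulation gave −0.43 (adjusted p = 0.279) for S100a8 and −0.19 (adjusted p = 0.723) for S100a9.

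The ratio of S100a8 counts to those of its partner S100a9 was highest in the M1 libraries. In Prep+/- M1 libraries 1.91, 1.6 and 1.98 counts of S100a8 fell on each count of S100a9, and in Prep-/- M1 libraries 1.31, 1.16 and 1.32. The genotypes did not overlap in M1, and the other 12 libraries lay between 0.439 and 0.835. No test was made of this ratio.

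Granulocyte and monocyte markers were lower in Prep-/- M1, as S100a8 and Slpi were. The 13 granulocyte markers summed to 168 to 196 CPM in Prep+/- M1 and to 41.7 to 67.1 CPM in Prep-/- M1, with Mmp8, a collagenase gene, at 140 and 27.9 CPM as group means. The 7 monocyte markers summed to 125 to 135 CPM in Prep+/- M1 and to 75.0 to 83.9 CPM in Prep-/- M1. In M0 both sums were higher in Prep-/-, mainly through Ngp, Ltf, Ccr2 and F13a1, with 94.1 to 128 against 70.0 to 84.6 CPM for granulocyte markers and 150 to 253 against 120 to 127 CPM for monocyte markers. Other members of these lists had lower group means in Prep-/- M0, Cx3cr1 with 16.2 against 51.9, Cebpe with 2.29 against 4.29 and Padi4 with 4.89 against 7.14 CPM. All 13 granulocyte markers were above 0 in at least 1 library, and in Prep+/- M1 1 of them, Retnlg, was at 0. Ly6g was at 0 in both M2 groups. The part of such cells in the differences of S100a8, S100a9, Slpi and the lysozymes was not tested.

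Among 7 genes of S100A8 and S100A9 receptors and their co-receptors, 3 passed in M1 between genotypes, where 22.5% of all genes did. Cd14 was lower in Prep-/- (log2 −0.93, SE 0.19, adjusted p = 0.00176), with 1008 to 1335 CPM in Prep+/- and 557 to 686 CPM in Prep-/-. Tlr4, the signalling receptor, was higher by 0.78 (SE 0.12, adjusted p = 0.000237). Ager, the gene of RAGE, was higher by 1.67 (SE 0.43, adjusted p = 0.0067) but stayed below 2 CPM in both genotypes. In M2, 1 of the 7 passed, Emb with 0.64 (SE 0.16, adjusted p = 0.0072). Of all genes, 16.2% passed in M2. The medians of the list were −0.15 in M1 and 0.10 in M2.

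S100a4 was lowered by LPS in both genotypes and was lowest in Prep-/- M1. S100A4 binds non-muscle myosin and is known from cell motility. It was at 2098, 2010 and 1561 CPM in Prep+/- M0 and at 731, 1064 and 869 CPM in Prep+/- M1, a fall with no overlap (log2 −1.09, SE 0.28, adjusted p = 0.00363). In Prep-/- it went from 957, 1209 and 2400 CPM in M0 to 249, 418 and 443 CPM in M1, a fall (log2 −2.04, SE 0.29, adjusted p = 1.58e-05) that was −1.58 without the third M0 library (adjusted p = 2.38e-05). Each Prep-/- M1 library was below each Prep+/- M1 library, and S100a4 was 2.40-fold lower (log2 −1.26, SE 0.28, adjusted p = 0.00305). In M2 it was at 2030, 1820 and 1852 CPM in Prep+/- and at 1824, 1888 and 1433 CPM in Prep-/-. Here the genotypes overlapped and differed by −0.15 (95% interval −0.73 to 0.44, adjusted p = 0.736). The knockout effects in M2 and M1 differed by 1.11 (SE 0.39), which did not pass (adjusted p = 0.0695). The difference passed with DESeq2 (1.16, adjusted p = 0.0295). It also passed with only the libraries compared (adjusted p = 0.0233) and with the replicate block (adjusted p = 0.0221). Over all 17 alternatives the adjusted p ran from 0.0221 to 0.171.

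S100a6, which encodes calcyclin, was at 907, 860 and 711 CPM in Prep+/- M0 and at 412, 388 and 922 CPM in Prep-/- M0. Without the third library, which lay above all Prep+/- libraries, the difference of −0.52 (SE 0.26) became −1.06. In M1 the values were 559, 888 and 764 CPM in Prep+/- and 306, 366 and 438 CPM in Prep-/-. They did not overlap, and S100a6 was 1.99-fold lower in Prep-/- (log2 −0.995, SE 0.26, adjusted p = 0.00828, and 0.0529 without the first Prep-/- M1 library). In M2 the Prep+/- libraries at 1085, 877 and 939 CPM lay above the Prep-/- libraries at 762, 720 and 674 CPM, but the difference of −0.43 (SE 0.26, adjusted p = 0.249) did not pass. LPS lowered S100a6 in Prep-/- (log2 −0.64, SE 0.26, adjusted p = 0.0469), where the M0 and M1 libraries overlapped. This fall was lost with the replicate number as a block (−0.57, adjusted p = 0.0376, under the fold change of 1.5), with only the libraries compared (−0.68, adjusted p = 0.122), without the first or the second M1 library (adjusted p of 0.132 and 0.0831) and without the third M0 library, where it was −0.15 (adjusted p = 0.514).

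S100a10, the annexin A2 partner known as p11, varied least. It was at 360, 366 and 300 CPM in Prep+/- M0 and at 248, 267 and 459 CPM in Prep-/- M0, with the third Prep-/- library again the highest and a difference of −0.074 that was −0.42 without it. In M1 it was at 281, 391 and 353 CPM in Prep+/- and at 214, 204 and 261 CPM in Prep-/-. The groups did not overlap and the level was 1.51-fold lower (log2 −0.60, SE 0.19, adjusted p = 0.0239). In M2 the values of 475, 395 and 445 CPM in Prep+/- lay above 350, 350 and 374 CPM in Prep-/-, a difference of −0.29 (SE 0.19, adjusted p = 0.285) that did not pass. In Prep+/- BMDMs neither LPS (95% interval −0.40 to 0.40, adjusted p = 1) nor IL-4 and IL-13 (0.36, 95% interval −0.04 to 0.76, adjusted p = 0.22) gave a change that passed.

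S100a11, which binds annexins, rose with LPS in both genotypes. It went from 227, 228 and 202 CPM in Prep+/- M0 to 352, 425 and 414 CPM in Prep+/- M1 (log2 0.86, SE 0.19, adjusted p = 0.000953). In Prep-/- it went from 148, 130 and 209 CPM in M0 to 249, 238 and 293 CPM in M1 (log2 0.68, SE 0.19, adjusted p = 0.00487), or 0.87 without the third M0 library (adjusted p = 0.000587). Neither pair of groups overlapped. The genotypes differed in M0 by −0.43 with overlap, and by −0.67 without that library. The Prep-/- M1 libraries were below the Prep+/- M1 libraries, 1.53-fold on average (log2 −0.61, SE 0.18, adjusted p = 0.0175). The M1 calls of S100a10 and S100a11 were each lost without the second or the third Prep+/- M1 library or the first or the second Prep-/- M1 library, with adjusted p of 0.0703 to 0.113 for S100a10 and 0.0532 to 0.065 for S100a11. The rise of S100a11 with LPS in Prep-/- dropped to 0.50 without the second M0 library and 0.54 without the third M1 library, both under the fold change of 1.5. In M2, S100a11 was at 208, 192 and 216 CPM in Prep+/- and at 142, 149 and 234 CPM in Prep-/-, where the third Prep-/- library was above all Prep+/- libraries, and the difference of −0.23 (SE 0.18, adjusted p = 0.389) did not pass.

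S100a1 was the only S100 gene of the 7 that passed in M2. It was at 119, 109 and 99.9 CPM in Prep+/- M2 and at 230, 179 and 154 CPM in Prep-/- M2, with no overlap and a rise of 1.72-fold (log2 0.78, SE 0.21, adjusted p = 0.0125). The adjusted p was 0.0604 without the third Prep+/- library and 0.0899 without the first Prep-/- library. In M1 the genotypes overlapped, at 72.3, 94.8 and 83.7 CPM in Prep+/- and 87.0, 78.6 and 87.6 CPM in Prep-/- (log2 0.01, 95% interval −0.43 to 0.46, adjusted p = 0.966). In M0 it was at 119, 100 and 80.2 CPM in Prep+/- and at 136, 113 and 222 CPM in Prep-/-, which overlapped, and the difference of 0.65 (SE 0.21) was 0.31 without the third Prep-/- library. LPS lowered S100a1 in Prep-/- (log2 −0.89, SE 0.21, adjusted p = 0.00177), and by less without the third M0 library (−0.59, adjusted p = 0.0107). S100a13, which overlaps S100a1 on the other strand, differed by 0.14 in M2 (SE 0.26, adjusted p = 0.74) and had 178 CPM in the third Prep-/- M0 library against 77.4 and 77.8 CPM in the other two.

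In Prep-/- BMDMs, the comparison of M2 with M0 depended on the third M0 library. With it, Lyz1, S100a8 and S100a9 passed, all lower in M2. Without it 7 of 9 genes passed. These were also Slpi (−1.10, adjusted p = 0.0391), S100a1 (0.59, adjusted p = 0.0167), S100a4 (0.65, adjusted p = 0.03) and S100a6 (0.84, adjusted p = 0.00201). With all libraries the last 3 had values of 0.26, 0.17 and 0.32, with adjusted p of 0.339, 0.642 and 0.333.

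Proteins that bind S100 dimers were followed as 9 genes of annexins and other partners. Between genotypes, 0 of the 9 passed edgeR's test in M1, where 4 had an unadjusted p under 0.05 and 0 passed with DESeq2. Of all genes, 22.5% passed edgeR's test in M1 and 16.2% in M2. In M2, 1 of the 9 passed, Anxa1, the gene of the S100A11 ligand annexin A1, with a rise of 0.81 (SE 0.25, adjusted p = 0.0242). Its M2 libraries held 1276 to 1628 CPM in Prep+/- and 1545 to 3915 CPM in Prep-/-, which overlapped. LPS raised Anxa6 by 1.06 (SE 0.12, adjusted p = 1.89e-06) and Anxa2 by 0.67 (SE 0.21, adjusted p = 0.0147) and lowered Ahnak (log2 −0.93, SE 0.16, adjusted p = 0.000117) in Prep+/- BMDMs. With LPS in Prep+/-, 16.7% of all genes passed as higher and 20.9% as lower. The list medians between genotypes were −0.07 in M1 and 0.17 in M2. Of 10 other S100 genes, 9 were in the table, and S100a13 alone passed the filter on low counts.

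The difference of the knockout effect between M2 and M1 passed for 4 of the 10 genes, all with a higher value in M2, against 13.8% of all genes that passed and 5.9% that passed in that direction. The genes were Slpi, Lyz1, S100a8 and Lyz2. The other 6 also had positive values, between 0.30 for S100a10 and 1.24 for S100a9, with adjusted p from 0.0695 to 0.496. S100a9 passed with DESeq2 (adjusted p = 0.0299), with only the libraries compared (adjusted p = 0.0368) and with the replicate block (adjusted p = 0.00824), and S100a1 with only the libraries compared (adjusted p = 0.0271) and with the replicate block (adjusted p = 0.0306). Over the 17 alternatives the adjusted p went up to 0.195 for S100a9 and 0.239 for S100a1. The median of the 10 differences was 1.18, and that of all genes tested was −0.02.

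Genes whose 6 group means ran most like those of a member were sought among 9600 genes with a mean of at least 5 CPM, by the root mean square difference of centred log2 CPM. For Lyz2 these were Gdpd1 (0.19), Lyz1 (0.21) and Pygl (0.22), where the spread of Lyz2 about its own mean was 0.78. For Slpi they were Slc13a3 (0.31), Lox (0.46) and Adora2a (0.55), against a spread of 3.06. S100a6 was followed most closely by Npm3 (0.084), Pdf (0.093) and Sf3b3 (0.095), against a spread of 0.46, and S100a8 by Vasp (0.20), Ebi3 (0.22) and Cd302 (0.27), against a spread of 1.11. The likeness is a description over 6 group means.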

How the data were processed

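mRNA was measured by stranded poly(A) RNA-seq in 18 BMDM libraries. Groups are the genotypes and states of the labels, and replicate numbers are those of the sample titles. The authors trimmed reads with Trimmomatic 0.36, aligned them to GRCm39 with HISAT2 2.2.1.0, assembled them with stringtie2 and deposited whole-number counts per gene symbol without normalization. Annotation release, strand setting and handling of multiply matching reads are not given in the sources used here.

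Counts were filtered with filterByExpr (12021 of 16314 symbols kept), scaled by TMM (factors 0.818 to 1.20) and tested with edgeR 4.0.16 (limma 3.58.1, R 4.3.3) by the quasi-likelihood test, in 1 fit of all 18 libraries with 1 coefficient per group and Benjamini-Hochberg adjustment over all genes tested. The common biological coefficient of variation was 0.167. A DEG needed a fold change over 1.5 at an adjusted p under 0.05, and the difference of knockout effects needed the latter alone. Alternatives were DESeq2 1.42.0, the tool of the authors, DESeq2-type size factors, no filter, only the libraries compared, a replicate block, no fold criterion, and each library left out. The tests were tested on simulated data. Totals of 19068237 to 22598279 counts limit the precision of the lowest genes, and intervals are those of the fit.

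Numbers 1 to 3 recur in the groups. For each number, the correlation of its 2 libraries' deviations from their group means was 0.249, 0.255 and 0.462 for the knockout in M2. It was 0.201, 0.169 and 0.259 for LPS in Prep-/-, and the block served as a paired fit in these comparisons. The pairing comes from these correlations alone. In the other comparisons at least 1 of the 3 was under 0.1, so the block was not taken as a paired fit there. A low correlation does not show that the libraries were unpaired. No such correlation was computed for the difference of knockout effects.

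The members, the gene lists, the marker lists and the tests were chosen with earlier results of these data known. From each list, up to 3 called genes with the largest fold change were named per comparison described, and Wfdc21 in M1, S100a13, Retnlg and the marker genes were named after their values were seen. Of the symbols, 15667 matched GENCODE vM39, which gave positions, transcript lengths, promoters and coding sequences in GRCm39. Python 3.11.15 and matplotlib 3.10.9 drew the figures.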

Additional observations from a re-analysis of the deposited data

Results flagged for a closer look

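The effect of Prep loss differed between M2 and M1, by the test of the difference itself, for 4 of the 10 genes. On the log2 scale the effect in M2 exceeded that in M1 by 2.05 for Slpi (adjusted p = 0.0154), 1.68 for Lyz1 (adjusted p = 0.00446), 1.49 for S100a8 (adjusted p = 0.0119) and 1.27 for Lyz2 (adjusted p = 0.00497), all from edgeR's quasi-likelihood test. For Slpi the adjusted p was 0.067 without the first Prep-/- M2 library, and over its 17 alternatives it ranged from 0.000497 to 0.067. For the other 3 genes the call was kept in each of 17 alternatives, with adjusted p up to 0.0167 for Lyz1, 0.0349 for S100a8 and 0.0162 for Lyz2.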

How the results depend on the processing

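Of the tested values of single genes recomputed under the alternatives, 715 kept direction and side of the threshold, 39 lost the call, 28 gained it and 26 changed sign. Of 132 recomputed values with no test, 5 changed sign, 3 for Slpi (range −0.70 to 0.087) and 2 for S100a10 (range −0.42 to 0.089), both for the knockout in M0. With the M1 and M2 libraries alone, the number of genes whose knockout effect differed between M2 and M1 went from 4 to 7, and with the replicate block it was also 7. Leaving out single libraries gave 4 to 9 genes for the knockout in M1, 0 to 3 in M2, 3 to 5 for the difference of both effects, 7 to 7 for LPS and 1 to 3 for IL-4 and IL-13 in Prep+/-, and 5 to 8 and 2 to 7 for these stimulations in Prep-/-. Among tested values, sign changes were seen where the call was not made. S100a1 in the M1 knockout comparison was −0.018 with DESeq2-type size factors and with DESeq2 and −0.0039 with only the libraries compared, and ranged from −0.097 to 0.11 without single libraries. S100a10 under LPS in Prep+/- was 0.016 with DESeq2-type size factors, 0.015 with DESeq2, 0.014 with only the libraries compared and 0.0051 with the replicate block, and ranged from −0.14 to 0.097. S100a4 under IL-4 and IL-13 in Prep+/- was −0.011 with DESeq2-type size factors and with DESeq2, and ranged from −0.11 to 0.073. Without single libraries the range was −0.18 to 0.37 for Slpi in the M2 knockout comparison, −0.0085 to 0.25 for S100a1 under IL-4 and IL-13 in Prep+/-, and −0.074 to 0.65 for S100a4, −0.021 to 0.47 for S100a10 and −0.18 to 0.32 for S100a11 under IL-4 and IL-13 in Prep-/-. The cause was not tested. In the comparisons whose numbers were taken to pair the libraries, the replicate block changed no other call than that of S100a6 under LPS. In the other comparisons the numbers were not taken to pair libraries. There the block gave 9 genes for the knockout in M1, and 7 for LPS and 3 for IL-4 and IL-13 in Prep+/-. It gave 2 for IL-4 and IL-13 in Prep-/-, where S100a9 had an adjusted p of 0.0557. Slpi in M2, with 20 to 42 counts, is limited by depth.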
